A study of Mus musculus with 80 samples.

Results

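Mesothelial cells form the pleura, the thin sheet that covers the lung, and 6 genes that mark them were followed through the lungs of mice that had inhaled styrene. The genes were Upk3b, Upk1b, Msln, Wt1, Muc16 and Lrrn4. They were chosen by cell type and, in part, by their measured signal, which was low in 1 of the 16 groups, the TG mice in air. Every contrast with that group is therefore given as a description, with no test. The array carried all 6 among 17097 named genes. Of a gene's probe sets, the one with the highest mean signal over the 80 arrays was used. A gene passed the level filter if 5 or more arrays exceeded a log2 signal of 4.28, the median over all probe sets and arrays, and 11406 genes did. Among the 6, Wt1 did not: its signal passed that value in 1 of 80 arrays, so 5 of the 6 entered the tests.

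The lungs came from adult male mice of 4 strains: C57Bl/6 wild type (WT), C57Bl/6 CYP2F2 knockout (KO), mice humanized for CYP2F1 on C57Bl/6 (TG), and the outbred CD-1 stock. Airway club cells use the cytochrome P450 CYP2F2 to oxidize styrene, and the human enzyme of the same subfamily is CYP2F1. Every mouse had 1 exposure of 6 h to air (0 ppm) or to 10, 40 or 120 ppm styrene, and was killed on the following morning. Each of the 16 groups of strain and dose held 5 mice, with 1 array of whole-lung RNA per mouse. The sources used here do not give the promoter that drives CYP2F1 in the TG mice, nor whether those mice lack CYP2F2. CD-1 mice differ from the others in their whole genetic background. Since whole lung was measured, fewer mesothelial cells and less RNA per mesothelial cell cannot be told apart. The labels do not say how much pleura or neighbouring tissue each lung sample carried.

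The mesothelium is a single layer of flat cells with features of both epithelium and connective tissue. It makes a slippery surface on which the lung slides, and in embryos it gives rise to some of the lung's mesenchyme. Upk3b and Upk1b encode uroplakins, membrane proteins best known from the bladder lining. Msln encodes mesothelin, a surface glycoprotein, and Muc16 encodes a very large membrane mucin, CA125, to which mesothelin binds. Lrrn4 encodes a membrane protein with leucine-rich repeats and is used as a marker of mesothelium. Wt1 encodes a zinc finger transcription factor of the mesothelial lineage.

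Deposited values are log2 signal, so a difference of 1 is 2-fold. The median over the tested genes averaged 7.37 over the WT arrays, 6.98 over KO, 7.11 over CD-1 and 6.91 over TG. Among the TG arrays, air replicate 4 stood at 6.60 and the other 19 at 6.90 or more. This offset and the strain cannot be told apart, so strains were compared after each array was centred on that median, and doses within a strain on the values as deposited. Arrays of 1 group correlated at 0.978 or more, and no 2 arrays held identical values. The number of arrays limits the precision. Cyp2f2, the targeted gene, read 13.2 to 13.3 in the WT air arrays, 11.6 to 11.8 in KO air and 11.5 to 11.9 in TG air, so the groups labelled KO and TG stood below WT without overlap. The sources used here do not say whether its probe set lies inside the deletion.

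Markers of squamous epithelium and skeletal muscle set 4 of the 80 arrays apart. The squamous list (Krt5, Krt13, Krt4, Sprr1a and Sprr3) averaged 9.44 in WT air replicate 1, 9.39 in WT 40 ppm replicate 3 and 7.91 in CD-1 air replicate 4. The skeletal muscle list (Acta1, Ckm, Mylpf and Tnnt3) averaged 7.14, 9.80 and 9.78 in the same 3 arrays and 6.10 in KO air replicate 4. The other 76 arrays reached at most 5.26 and 4.93. Each of the 4 arrays was also the highest of its group of 5 for the mean of Upk3b, Msln, Muc16 and Lrrn4. The part of these tissues in the mesothelial values was not tested, and where a member's call changed without these arrays the value is given beside it. Calls of other genes were not checked without these arrays. Leaving them out was decided after the data were seen.

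RefSeq's promoter table for GRCm38.p6 held 3 of the members, and the promoters of these 3 are shown. Each is the 250 bases before the start in that table, 5′ to 3′ on the gene's own strand. Capitals mark GGAATG or its reverse CATTCC, the core letters bound by TEAD factors, the DNA-binding partners of YAP.
Upk3b, chr5:136038246-136038495, plus strand: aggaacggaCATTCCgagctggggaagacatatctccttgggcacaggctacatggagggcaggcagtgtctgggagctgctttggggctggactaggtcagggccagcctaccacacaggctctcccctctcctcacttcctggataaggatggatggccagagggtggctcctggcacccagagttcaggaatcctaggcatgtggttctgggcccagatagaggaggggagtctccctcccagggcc
Lrrn4, chr2:132880863-132881112, minus strand: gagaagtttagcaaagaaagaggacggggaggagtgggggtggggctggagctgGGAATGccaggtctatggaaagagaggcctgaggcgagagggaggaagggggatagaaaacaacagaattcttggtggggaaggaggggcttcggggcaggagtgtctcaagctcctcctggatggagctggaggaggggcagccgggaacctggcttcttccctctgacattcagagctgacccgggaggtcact
Muc16, chr9:18674604-18674853, minus strand: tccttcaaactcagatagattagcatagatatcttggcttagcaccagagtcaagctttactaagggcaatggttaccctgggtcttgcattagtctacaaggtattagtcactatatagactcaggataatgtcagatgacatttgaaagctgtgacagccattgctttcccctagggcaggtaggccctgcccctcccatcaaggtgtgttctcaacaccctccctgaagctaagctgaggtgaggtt
The core lay 241 bases before the start of Upk3b and 196 before that of Lrrn4, and 12.6% of the 32851 promoters of this length in the table held it on either strand. Muc16 held none of the motifs searched. The others were GGGCGG (32.7% of all promoters), CCAAT (33.9%) and TATAAA (12.4%), on both strands, and none of the 3 genes held one. G and C made up 60.8% of the Upk3b promoter, 59.2% of Lrrn4 and 46.4% of Muc16, beside a median of 52.4% over the table. A match of letters is a description and not a binding site. Upk1b, Msln and Wt1 were not in the table.

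In GRCm38.p6, Upk3b spans chr5:136038496-136044993. Msln spans chr17:25748613-25754378, and Muc16 chr9:18495445-18674821. Lrrn4 (chr2:132866686-132894010) and Wt1 (chr2:105126529-105173614) both lie on chromosome 2, and Upk1b spans chr16:38773182-38800203. The 6 genes thus lie on 5 chromosomes. For Lrrn4 and Muc16 the promoter table uses a start inside the span, so the printed Lrrn4 promoter lies within it and that of Muc16 overlaps its end.

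In clean air, 4 of the genes (Upk3b, Msln, Muc16 and Lrrn4) stood at their fullest in WT mice and spread widely in KO mice. The 5 WT mice read 9.48, 9.20, 8.96, 8.84 and 8.54 for Upk3b, in replicate order. The KO mice read 6.59, 7.06, 8.93, 8.92 and 7.36. Replicates 3 and 4 of KO lay within the WT range and the other 3 lay far below it. The CD-1 mice read 8.17, 7.99, 8.36, 9.11 and 8.85, so 2 of the 5 lay within the WT range. The group means were 9.01 ± 0.36 in WT, 7.77 ± 1.09 in KO and 8.50 ± 0.47 in CD-1 (log2 signal, SD, n = 5).

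The same 2 KO mice were the high ones for every one of these genes. For Msln the WT air mice read 7.55, 7.65, 7.29, 6.90 and 6.99 (7.28 ± 0.33) and the KO air mice 4.95, 5.42, 6.94, 7.39 and 5.90 (6.12 ± 1.02). For Muc16 the WT air mice read 6.58, 6.61, 6.72, 5.99 and 6.22 (6.42 ± 0.30) and the KO air mice 4.32, 4.00, 5.72, 6.44 and 4.41 (4.98 ± 1.05). Replicates 3 and 4 stood above the other KO mice for both genes. For Lrrn4 the WT air mice read 6.42, 6.00, 5.76, 5.79 and 5.42 (5.88 ± 0.37) and the KO air mice 3.79, 4.22, 6.13, 5.96 and 4.28 (4.88 ± 1.09). Even Wt1, near the floor of the array, read 3.74 and 3.45 in those 2 KO mice and 2.79 to 2.87 in the other 3.

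After centring, KO minus WT in air was -1.07 ± 0.40 (log2, SE, n = 5 per group) for Muc16, -0.86 ± 0.40 for Upk3b, -0.78 ± 0.37 for Msln and -0.63 ± 0.40 for Lrrn4. None passed limma's moderated test with Benjamini-Hochberg adjustment over the 11406 genes (adjusted p 0.080, 0.150, 0.157 and 0.312). The threshold was 0.05 throughout, and 16.8% of all tested genes passed in this comparison. Each SE pools the spread of the WT, KO and CD-1 air arrays, and KO spread most for these 4 genes. The 5 members had a median of -0.78 beside 0.0061 over all genes, and 3 of the 5 had an unadjusted p under 0.05, beside 3609 genes. Without the 4 arrays that stood apart, Muc16 passed (-1.40, adjusted p 0.0246) and the median was -1.03. Without KO air replicate 4 alone, Muc16 (-1.44, adjusted p 0.0123) and Msln (-1.10, adjusted p 0.030) passed. On the values as deposited, where WT arrays read higher, all 5 passed.

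In air, Upk1b alone of the 5 tested members set CD-1 apart from WT and KO past the threshold. For the other 4, CD-1 minus WT ranged from -0.63 ± 0.40 for Muc16 to -0.08 ± 0.40 for Lrrn4 with adjusted p from 0.240 to 0.895, and CD-1 minus KO from 0.44 ± 0.40 for Muc16 to 0.62 ± 0.37 for Msln with adjusted p from 0.215 to 0.429. The intervals are wide: that for Muc16 in CD-1 minus WT ran from -1.49 to 0.23. They rest on a spread pooled over WT, KO and CD-1, with KO the widest for these genes. For Muc16 the SD after centring was 0.31 in WT, 0.62 in CD-1 and 1.04 in KO. Without KO air replicate 4, Msln stood 0.93 higher in CD-1 than in KO and passed (adjusted p 0.0387).

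Upk1b was much lower in CD-1 than in WT or KO. The CD-1 air mice read 6.01, 5.66, 5.96, 6.32 and 6.36 (6.06 ± 0.29), beside 8.54, 8.79, 8.46, 8.46 and 8.38 in WT air (8.53 ± 0.16) and 7.94, 7.94, 8.17, 8.41 and 8.11 in KO air (8.11 ± 0.19). After centring it was lower in CD-1 than in WT by 4.66-fold (log2 difference -2.22 ± 0.13, adjusted p 3.33e-09) and lower than in KO by 4.53-fold (-2.18 ± 0.13, adjusted p 4.5e-09). These 2 comparisons called 35.8% and 32.4% of all tested genes, and Upk1b was the 1 member of 5 called in each. Over all doses the 20 CD-1 arrays ran from 4.11 to 7.08, and the lowest of the C57Bl/6 arrays stood at 7.45. All 3 probe sets for the gene showed it: in WT and CD-1 air they read 8.53 and 6.06, 8.38 and 6.23, and 8.04 and 5.86. Between KO and WT in air Upk1b differed by -0.04 ± 0.13 (adjusted p 0.859).

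**Figure D1:**
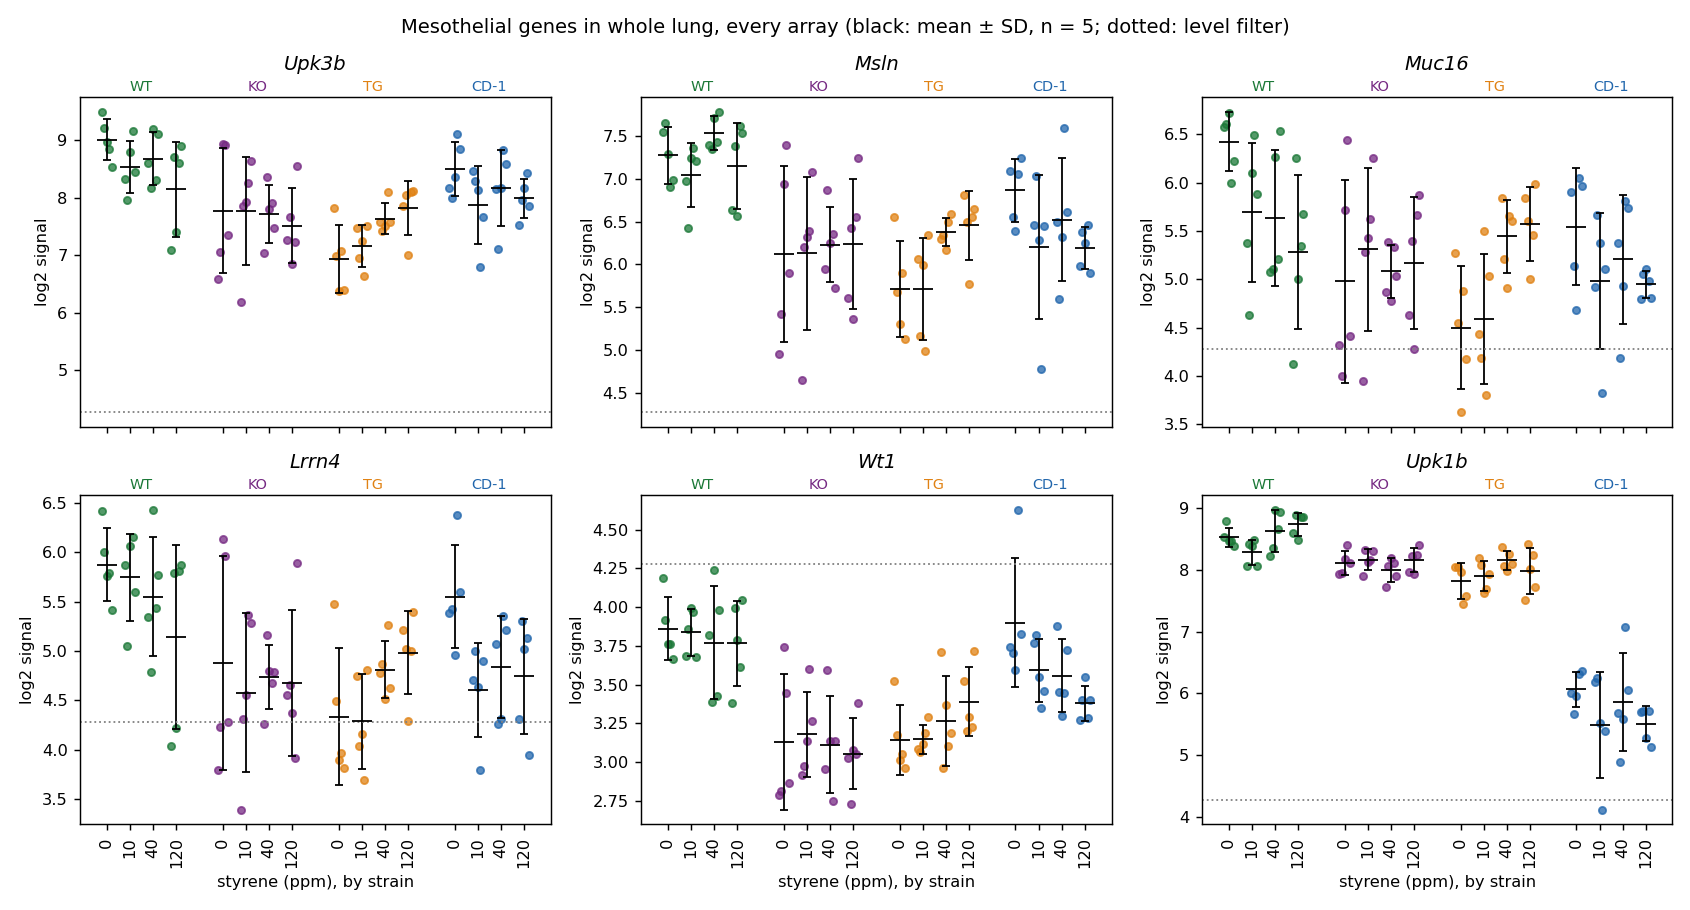
Log2 signal of the 6 mesothelial genes in every array, by strain and styrene dose, 1 panel per gene; points are mice, bars the group mean with 1 SD (n = 5), and the dotted line the level filter at 4.28. Upk3b, Msln, Muc16 and Lrrn4 scatter widely within groups, most of all in KO air (SD 1.09 for Upk3b), Upk1b is low in all 20 CD-1 arrays (4.11 to 7.08), and Wt1 lies below the line in 79 of 80 arrays.

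The TG mice in air are described next, without a test. Their Upk3b signal was 7.83, 6.98, 6.38, 7.07 and 6.40 (6.93 ± 0.59), the lowest mean of the 16 groups. Their Muc16 signal was 5.27, 4.55, 3.63, 4.88 and 4.17 (4.50 ± 0.63), also the lowest of the 16. For Msln, with 6.56, 5.67, 5.30, 5.90 and 5.13 (5.71 ± 0.56), and for Lrrn4, with 5.48, 4.50, 3.90, 3.97 and 3.81 (4.33 ± 0.69), TG air was second lowest after TG 10 ppm. Replicate 1 was the highest TG air mouse for all 4 genes. As deposited, all 5 WT air mice read above every TG air mouse for Upk3b, Msln, Muc16, Upk1b and Wt1, and 4 did for Lrrn4. After centring 5 did for Upk3b and Muc16, 3 for Msln, 2 for Lrrn4 and Upk1b and 1 for Wt1. On either scale 2 of the 5 KO air mice did so for Upk3b, Msln, Muc16 and Lrrn4. The ranks of the TG air means of these 4 genes were the same after centring.

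Neither Upk1b nor Wt1 had its lowest or second lowest group mean in TG air. Upk1b in TG air (7.82 ± 0.29) ranked 5 from the lowest as deposited and 6 after centring, with the 4 CD-1 groups below it in both. Wt1 in TG air (3.14 ± 0.23) ranked 4 from the lowest as deposited and 7 after centring. The gap between WT and TG in air was 2.08 for Upk3b, 1.92 for Muc16, 1.56 for Msln and 1.54 for Lrrn4 as deposited, and 1.59, 1.44, 1.08 and 1.06 after centring. For Upk1b and Wt1 the gap was 0.71 and 0.72 as deposited, and 0.22 and 0.23 after centring.

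Within TG, the same 4 genes stood higher with each step of the dose in their group means, apart from 10 ppm beside air for Msln and Lrrn4. Upk3b averaged 6.93 in air, 7.16 ± 0.36 at 10 ppm, 7.63 ± 0.27 at 40 ppm and 7.82 ± 0.47 at 120 ppm. Muc16 averaged 4.50, 4.59 ± 0.67, 5.44 ± 0.38 and 5.58 ± 0.38. Msln averaged 5.71, 5.71 ± 0.60, 6.38 ± 0.17 and 6.46 ± 0.40, and Lrrn4 4.33, 4.29 ± 0.48, 4.81 ± 0.29 and 4.98 ± 0.42. TG 120 ppm minus TG air was 0.90 for Upk3b, 1.08 for Muc16, 0.75 for Msln and 0.65 for Lrrn4, and, as deposited, 4 of the 5 mice at 120 ppm read above every TG air mouse for Upk3b and Muc16, 2 for Msln and 0 for Lrrn4. After centring these counts were 3, 4, 2 and 0. Upk1b showed no such order, with means of 7.82, 7.91 ± 0.24, 8.15 ± 0.16 and 7.98 ± 0.37.

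The TG doses were tested among themselves, without the air mice. At 10 ppm the Muc16 signal averaged 4.59 and ran from 3.81 to 5.5, and at 120 ppm it was 5.84, 5.60, 5.00, 5.46 and 5.99. The groups overlapped. Muc16 at 120 minus 10 ppm was 0.99 ± 0.27 (log2, SE), Msln 0.75 ± 0.24, Lrrn4 0.70 ± 0.22 and Upk3b 0.66 ± 0.21. None passed after adjustment (adjusted p 0.358, 0.400, 0.412 and 0.399), and 0% of the 11406 genes did. An unadjusted p under 0.05 was reached by 1185 of the genes and by 4 of the 5 members. At 40 minus 10 ppm the differences were 0.85, 0.67, 0.52 and 0.47 in the same order (adjusted p 0.427 to 0.485). There again 0% of genes passed and 4 of the 5 members had an unadjusted p under 0.05, beside 1103 genes. At 120 minus 40 ppm the members ran from -0.17 for Upk1b to 0.19 for Upk3b (adjusted p 0.998), and 0% passed, with 391 genes and 0 members at an unadjusted p under 0.05. The members' medians were 0.70, 0.52 and 0.13 in these 3 comparisons, beside 0.0044, -0.0013 and 0.0090 over all genes.

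Markers of other tissue were set beside these TG doses. Of the 7 cardiac muscle markers, 5 were tested. Their median difference was 1.22 at 120 minus 10 ppm, 0 of them were called, and their mean level per array ran from 6.37 to 8.44 at 10 ppm and from 7.01 to 9.85 at 120 ppm. Of the 6 adipose markers 2 were tested, with a median of 1.27 and 0 called, beside 0% of all genes. In TG air, where Upk3b and Muc16 were lowest, the cardiac markers averaged 8.74 ± 1.04, the highest of the 16 groups. The part of these tissues in the mesothelial values was not tested.

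Over the 3 exposed doses, TG mice averaged near KO mice, and they were below WT mice for 2 of the genes. This average joins doses that differed. After centring, Upk3b, Msln, Muc16 and Lrrn4 averaged lower in TG than in KO at 10 ppm and higher at 120 ppm. Upk1b averaged lower at both. Muc16 averaged 4.76, 5.61 and 5.73 in TG at 10, 40 and 120 ppm. In KO it averaged 5.42, 5.19 and 5.29, and in WT 5.42, 5.37 and 4.99. Gaps at single doses were not tested. Over the doses together, TG minus KO ran from -0.08 to 0.08 for the 5 tested members, with SE of 0.14 to 0.22 and adjusted p of 0.781 or more, while 46.9% of all tested genes were called. The interval for Upk3b ran from -0.49 to 0.34. TG minus WT was -0.62 ± 0.20 for Msln (1.53-fold lower, adjusted p 0.00518) and -0.47 ± 0.21 for Upk3b (1.38-fold lower, adjusted p 0.0394). These were 2 of 5 members, in a comparison that called 68.0% of all genes. Lrrn4 (-0.35 ± 0.20, adjusted p 0.128), Upk1b (-0.09 ± 0.14) and Muc16 (0.11 ± 0.22) did not pass. On the values as deposited, where WT arrays read higher, Lrrn4 was -0.79 (adjusted p 0.000431) and Upk1b -0.54 (adjusted p 0.000623) and both passed, and Muc16 was -0.33. Without the arrays that stood apart, Upk3b did not pass (-0.42, adjusted p 0.0681) and Msln did (-0.60, adjusted p 0.0082). The Upk3b call was lost when 1 of 12 arrays was left out, with adjusted p up to 0.0812, or when all 80 arrays were fitted together (adjusted p 0.0504). The 12 arrays were TG 10 ppm replicates 2 and 4, TG 40 ppm replicates 2 and 3, TG 120 ppm replicate 3, WT 10 ppm replicates 3 and 4, WT 40 ppm replicates 3 and 5, and WT 120 ppm replicates 2, 4 and 5. Without WT 120 ppm replicate 1, Lrrn4 passed as well (-0.44, adjusted p 0.0495). Against CD-1, Upk1b was 5.96-fold higher in TG (2.58 ± 0.14, adjusted p 3.24e-22), and the other 4 ran from -0.29 to 0.34 without passing, where 65.1% of all genes did. On the values as deposited Upk3b passed there as well (-0.47, adjusted p 0.0364).

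In WT mice Muc16 averaged lower at each styrene dose than in air, and its calls depended on single arrays. The WT air mice, given above, ran from 5.99 to 6.72. At 120 ppm the mice read 4.12, 6.26, 5.00, 5.34 and 5.68 (5.28 ± 0.80), with replicate 2 within the air range and 4 below it. At 10 ppm they read 5.38, 4.63, 6.10, 6.49 and 5.88 (5.70 ± 0.72), and at 40 ppm 5.08, 5.10, 6.26, 5.21 and 6.53 (5.64 ± 0.70). At each dose some mice stayed within the air range and the others lay below it.

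Muc16 was 2.21-fold lower at 120 ppm than in air (log2 difference -1.14 ± 0.38, adjusted p 0.0351), and 1.85-fold lower over the 3 doses together (-0.89 ± 0.31, adjusted p 0.0377). It was the 1 member of 5 called in either comparison, where 23.9% and 29.6% of all tested genes were. At 10 ppm (-0.73 ± 0.38, adjusted p 0.226) and at 40 ppm (-0.79 ± 0.38, adjusted p 0.135) it did not pass, and 0 members were called beside 12.6% and 26.0% of genes. At those 2 doses 0 members had an unadjusted p under 0.05, while 3143 and 4365 genes did. Leaving out WT air replicate 1, 2 or 3, or WT 120 ppm replicate 1, 3 or 4, ended the 120 ppm call (difference -1.16 to -0.85, adjusted p 0.0534 to 0.108). The call over the 3 doses was lost without WT air replicate 1, 2, 3 or 5, WT 10 ppm replicate 1, WT 40 ppm replicate 1, 2 or 4, or WT 120 ppm replicate 3, and with a trended, robust variance. Without the arrays that stood apart, Muc16 was -1.10 at 120 ppm (adjusted p 0.0594) and -0.90 over the 3 doses (adjusted p 0.0619), and neither passed.

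Upk3b and Lrrn4 were low in the same WT mice. At 120 ppm Upk3b read 7.10, 8.71, 7.41, 8.60 and 8.89 (8.14 ± 0.83) and Lrrn4 4.03, 5.79, 4.22, 5.81 and 5.87 (5.15 ± 0.93). Replicates 1 and 3 were the low ones for both, as they were for Msln and Muc16. The differences from air were -0.86 ± 0.32 (adjusted p 0.0572) for Upk3b and -0.73 ± 0.36 (adjusted p 0.152) for Lrrn4. Upk3b passed when the arrays were centred (-0.90, adjusted p 0.0482) or all its probe sets were averaged (-0.96, adjusted p 0.0432). It also passed without WT air replicate 5 or without WT 120 ppm replicate 2, 4 or 5 (adjusted p 0.0302 to 0.0498). Over 19 alternatives its adjusted p ran up to 0.169. At the lower doses Upk3b averaged 8.54 ± 0.46 and 8.67 ± 0.46, and Lrrn4 5.75 ± 0.44 and 5.55 ± 0.60.

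Msln and Upk1b held nearer to their air levels in WT. Msln at 120 ppm read 6.64, 7.38, 6.57, 7.61 and 7.54 (7.15 ± 0.50), -0.13 ± 0.21 from air with an interval of -0.57 to 0.32 (adjusted p 0.707), and it averaged 7.04 ± 0.37 at 10 ppm and 7.53 ± 0.20 at 40 ppm. Upk1b averaged 8.28 ± 0.20, 8.63 ± 0.34 and 8.74 ± 0.19 at the 3 doses, and 120 ppm minus air was 0.21 ± 0.14 (adjusted p 0.287). Wt1 averaged 3.86, 3.84, 3.77 and 3.77 over the 4 WT groups. The median of the 5 tested members was -0.24, -0.32 and -0.73 at 10, 40 and 120 ppm, beside -0.0026, -0.0064 and 0.015 over all genes.

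KO mice showed no shift in these genes that could be set apart from their spread. Upk3b averaged 7.77 ± 0.94 at 10 ppm, 7.72 ± 0.50 at 40 ppm and 7.51 ± 0.65 at 120 ppm, beside 7.77 in air. Msln averaged 6.13 ± 0.90, 6.23 ± 0.44 and 6.24 ± 0.76 beside 6.12, and Muc16 5.31 ± 0.85, 5.08 ± 0.27 and 5.17 ± 0.68 beside 4.98. Lrrn4 averaged 4.58 ± 0.80, 4.74 ± 0.33 and 4.68 ± 0.74 beside 4.88, and Upk1b 8.17 ± 0.17 at 10 ppm and 8.16 ± 0.20 at 120 ppm beside 8.11. At 40 ppm Upk1b differed from air by -0.12 ± 0.11 (SE). The differences from air over the 5 members and 3 doses ran from -0.30 to 0.33, with SE of 0.43 to 0.47 for all but Upk1b (0.11). The interval for Upk3b at 120 ppm, -1.23 to 0.71, holds the -0.86 seen in WT. In each of the 3 doses and in their mean, limma called 0 members and 0% of all genes. Genes with an unadjusted p under 0.05 numbered 649, 564, 596 and 644, none of them a member.

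In CD-1 mice every tested member averaged lower after styrene than in air at every dose, and none passed the test. Upk3b averaged 8.50 in air and 7.87 ± 0.67, 8.17 ± 0.66 and 7.99 ± 0.34 at 10, 40 and 120 ppm. Lrrn4 in air read 5.39, 5.43, 4.95, 6.38 and 5.59 (5.55 ± 0.52), at 10 ppm 4.70, 5.00, 4.63, 3.80 and 4.90 (mean lower by 0.94 than in air), and at 120 ppm 4.31, 5.30, 5.02, 5.13 and 3.95 (4.74 ± 0.58). For Lrrn4 the 10 ppm mice lay below all but 1 of the air mice. Its differences from air were -0.94 ± 0.31, -0.71 ± 0.31 and -0.81 ± 0.31 (adjusted p 1, 1 and 0.785). The 5 members' medians were -0.63, -0.34 and -0.60 beside 0.0024, 0.012 and 0.011 over all genes. Since the 3 doses share the air mice, these are not 3 separate observations. Those air mice include replicate 4, 1 of the 4 arrays that stood apart and the highest of the 5 for Lrrn4. Over 19 alternatives the Lrrn4 difference ran from -1.09 to -0.74 at 10 ppm, -0.86 to -0.50 at 40 ppm and -0.95 to -0.60 at 120 ppm. Upk1b at 40 ppm ran from -0.51 to 0.04. Of all tested genes 0%, 0.00877% and 0.0175% passed, and 0.00877% (1 gene) did for the mean of the doses. Of the members, 1 of 5, Lrrn4, had an unadjusted p under 0.05 at each dose, beside 272, 442 and 597 genes.

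The other CD-1 means were Msln 6.86 ± 0.37 in air and 6.20 ± 0.84, 6.52 ± 0.72 and 6.19 ± 0.24 after styrene, and Muc16 5.55 ± 0.61 and 4.98 ± 0.70, 5.21 ± 0.67 and 4.95 ± 0.14. Upk1b averaged 6.06 in air and 5.49 ± 0.86, 5.86 ± 0.80 and 5.51 ± 0.29. Wt1 averaged 3.90 ± 0.42 in air and 3.59 ± 0.20, 3.56 ± 0.24 and 3.38 ± 0.11. At 10 ppm a single mouse, replicate 4, was the lowest for all 6 genes, with 6.79 for Upk3b, 4.78 for Msln, 3.83 for Muc16 and 4.11 for Upk1b.

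Whether WT, KO and CD-1 differed in their mean response was tested directly. WT minus KO was -1.09 ± 0.47 for Muc16 (adjusted p 0.122) and between -0.45 and 0.03 for the other 4. No member passed, while 13.1% of all genes did, and 1 of 5 had an unadjusted p under 0.05, beside 3022 genes. Without KO air replicate 4 the Muc16 difference was -1.46 and passed (adjusted p 0.0311), as it did without all 4 arrays that stood apart (-1.47, adjusted p 0.0431). WT minus CD-1 ran from -0.39 for Muc16 to 0.52 for Msln, with 0 members and 7.31% of genes called and 0 members at an unadjusted p under 0.05, beside 2453 genes. CD-1 minus KO ran from -0.71 for Muc16 to -0.38 for Upk3b, with 0 members and 0% of genes called and 524 genes, no member among them, at an unadjusted p under 0.05. With all arrays kept, the Muc16 difference from air in WT is thus not shown to differ from that in KO or CD-1.

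**Figure D2:**
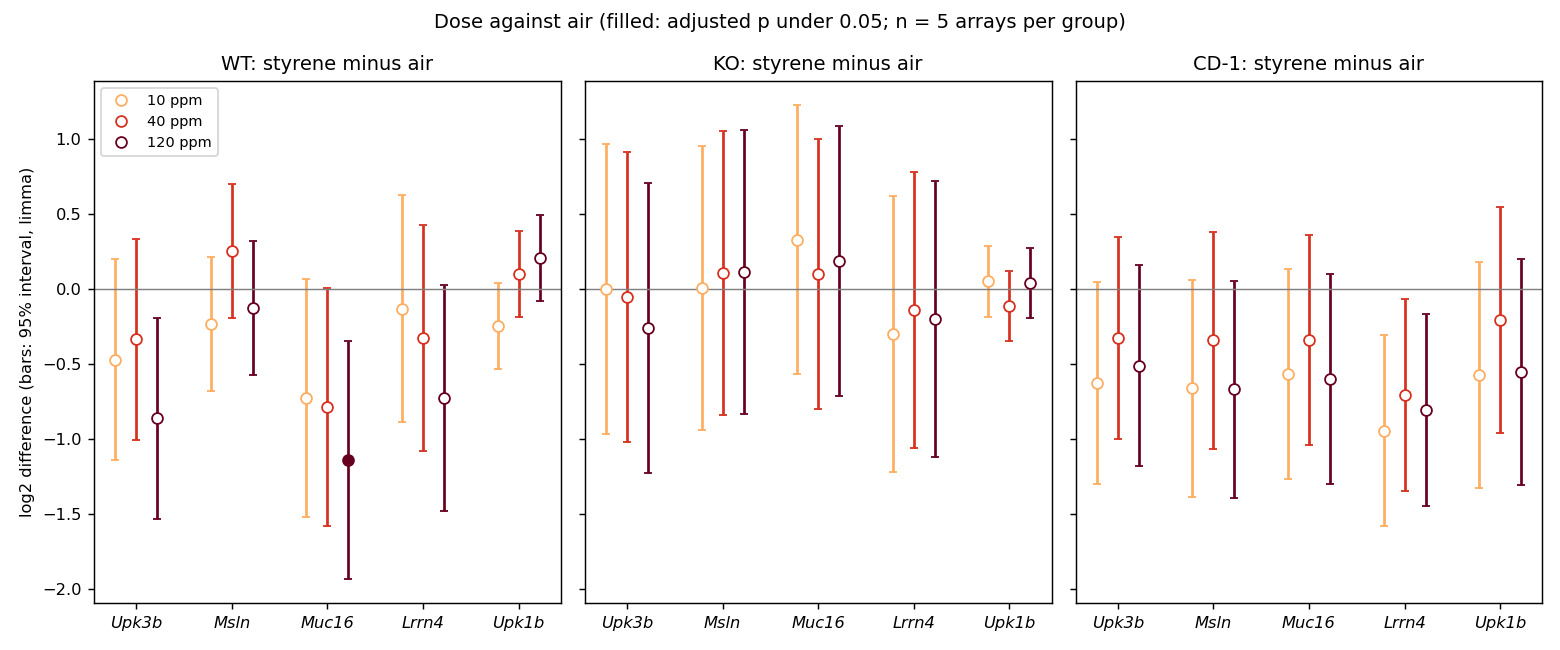
Log2 difference from air of the 5 tested genes at 10, 40 and 120 ppm styrene in WT, KO and CD-1 mice; bars are 95% intervals from limma, and a filled marker passed the test after adjustment over 11406 genes. Muc16 in WT at 120 ppm (-1.14) is the only filled marker, every CD-1 marker lies below 0, and the KO intervals for all genes but Upk1b are the widest.

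The strongest feature of the genes was that they differed between mice of the same group, and did so together. The SD of Upk3b within a group was 0.56 in WT and 0.83 in KO, and 0.44 in TG and 0.55 in CD-1, where the median tested gene had 0.13 to 0.18. Among all tested genes this put Upk3b at the percentile 99.9 in KO, 98.7 in WT, 98.3 in TG and 97.2 in CD-1. Msln (0.37 to 0.81), Muc16 (0.54 to 0.77) and Lrrn4 (0.49 to 0.79) were alike in this. Upk1b was steadier in the C57Bl/6 strains, with 0.23 in WT, 0.19 in KO and 0.28 in TG, but had 0.62 in CD-1.

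To follow single mice, each value was taken as its deviation from its group's mean, over the 75 arrays other than TG air. Upk3b and Lrrn4 correlated at a Pearson r of 0.896 (Spearman rho 0.882), Upk3b and Msln at 0.890 (rho 0.851), and Msln and Muc16 at 0.862 (rho 0.839). The 6 pairs among Upk3b, Msln, Muc16 and Lrrn4 ran from 0.768 to 0.896, with a median of 0.848. Without the 2 arrays farthest from the median of the first gene they ran from 0.734 to 0.882. Within strains the median of the 6 pairs was 0.859 in WT and 0.922 in KO, and 0.798 in TG and 0.788 in CD-1. A two-sided permutation test, with arrays shuffled within groups, gave each pair p = 1e-05, the smallest that 100000 resamples can give, and 1.2e-05 after adjustment over the 15 pairs of members. All genes of an array share its RNA and hybridisation. The median over all 15 pairs was 0.622, and 0.611 without the arrays that stood apart.

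Wt1 and Upk1b were tied more loosely to the 4. Pairs of Wt1 with them ran from 0.467 to 0.670 (adjusted permutation p 0.00022 or less), with a median of 0.689 in KO and 0.136 in TG. Pairs with Upk1b, Wt1 included, ran from 0.260 to 0.622, with medians of 0.601 in WT, 0.783 in KO, 0.775 in CD-1 and -0.05 in TG. The loosest pair was Upk1b with Wt1 (r 0.260, rho 0.302, permutation p 0.022 for r).

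**Figure D3:**
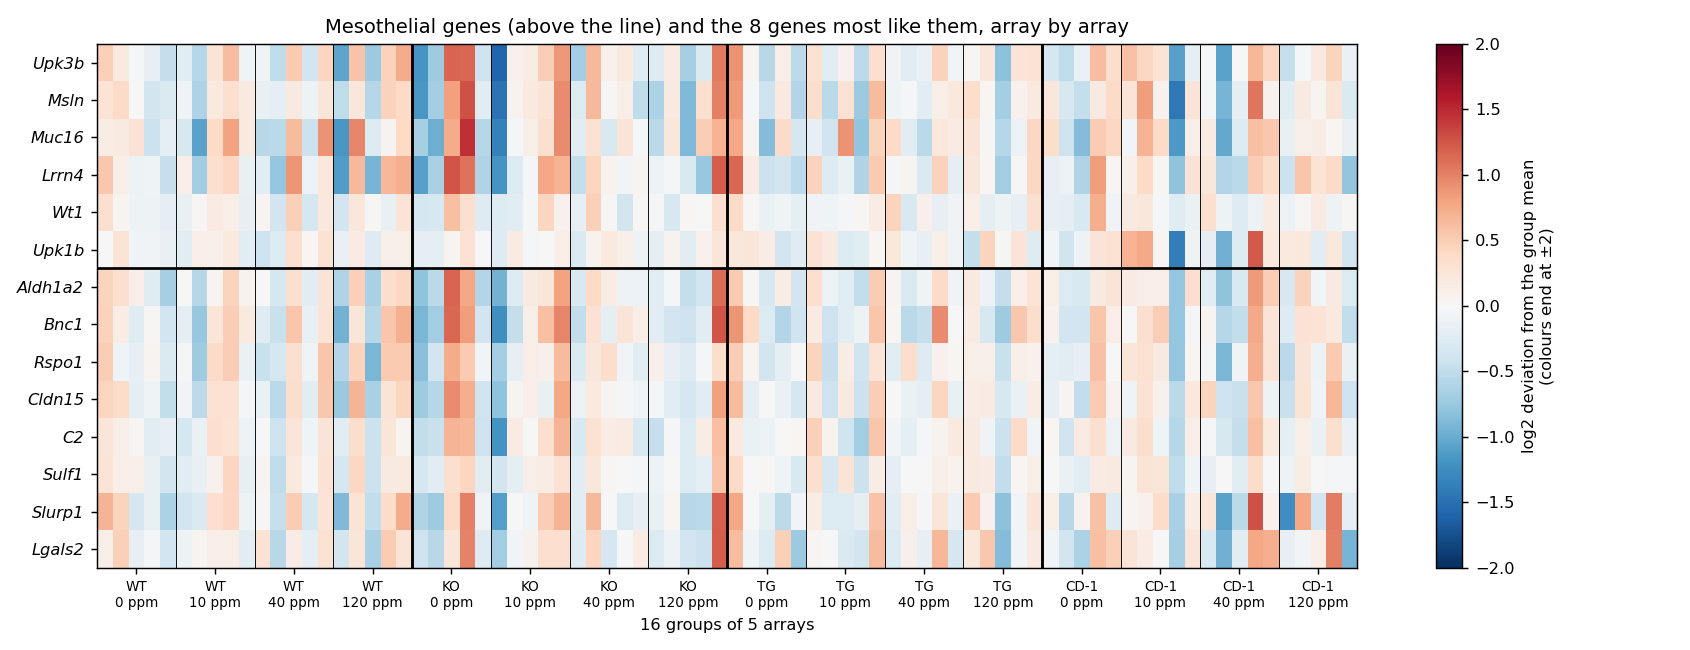
Deviation from the group mean (log2) of the 6 mesothelial genes and, below the line, the 8 genes most like them, in all 80 arrays ordered by strain and dose; colours end at 2 units either way. Columns are mice, and many columns keep 1 colour from top to bottom outside the Upk1b and Wt1 rows, as in KO air, where replicates 3 and 4 are high and the other 3 low.

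Upk1b followed the other genes by different amounts in different strains. Set against the mean of Upk3b, Msln, Muc16 and Lrrn4, Upk1b moved by 1.05 log2 units per unit in CD-1 (r 0.878, 20 arrays), 0.29 in WT (r 0.644, 20 arrays), 0.20 in KO (r 0.802, 20 arrays) and 0.019 in TG (r 0.026, 15 arrays). In CD-1 mice, then, where its level was lowest, Upk1b rose and fell 1 for 1 with the other markers, and in C57Bl/6 mice it moved by 0.29 of a unit per unit or less. The difference in slope between strains was not tested.

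**Figure D4:**
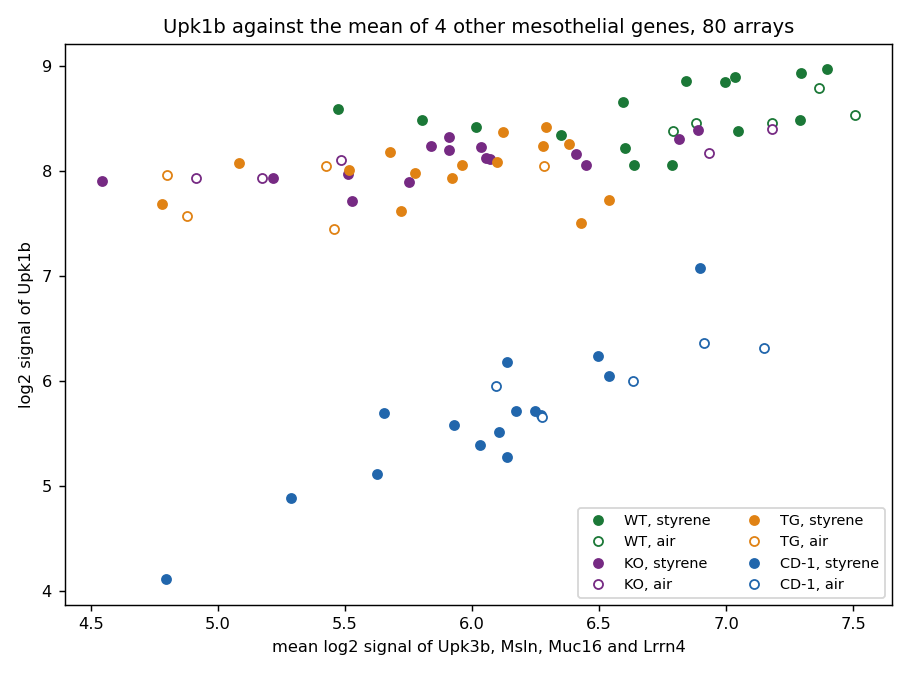
Log2 signal of Upk1b against the mean log2 signal of Upk3b, Msln, Muc16 and Lrrn4 in each of 80 arrays, coloured by strain, with open points for air and filled points for styrene. The 20 CD-1 arrays lie low and along a steep line (slope 1.05), while WT, KO and TG arrays lie in a flat band at 7.45 or more.

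The genes most like the members were found by correlating each tested gene's deviations with the mean of the members', each divided by its SD. The 8 highest, with no test, were Aldh1a2 (r 0.913), Bnc1 (0.879), Rspo1 (0.877), Cldn15 (0.868), C2 (0.857), Sulf1 (0.844), Slurp1 (0.814) and Lgals2 (0.799). Aldh1a2 makes retinoic acid, Bnc1 encodes a zinc finger factor of epithelia, Rspo1 a secreted amplifier of Wnt signals, and Cldn15 a tight junction claudin. C2 is a complement component, Sulf1 trims sulfate from heparan sulfate chains, Slurp1 is a small secreted Ly6 protein and Lgals2 a galectin. Over all 11406 genes the median r was 0.020, and 72 genes exceeded 0.5. The correlation of Aldh1a2 ran from 0.842 in TG to 0.941 in KO.

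Of these 8, Aldh1a2, Bnc1, Rspo1, Cldn15 and Sulf1 also belong to a wider list of 16 genes reported in mesothelium, of which 15 were on the array under 1 symbol and 13 were tested. The mean of the 13 correlated with the members at 0.882. Its loosest genes were Has1, a hyaluronan synthase (r 0.218), and Prg4, the lubricant lubricin (r 0.322). Krt7, Krt8, Krt18 and Krt19, with Pdpn and Cdh1, which airway and alveolar epithelium also express, correlated as a list at 0.481, with 0.724 in KO, 0.702 in CD-1 and 0.024 in WT.

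In WT at 120 ppm 5 of the 13 wider genes changed, 4 down and 1 up, with a median of -0.36, where 23.9% of all tested genes were called. Efemp1, a fibulin of the matrix, fell by 0.43 ± 0.11 (adjusted p 0.0102) and Bnc1 by 0.91 ± 0.29 (adjusted p 0.0304). Has1 rose by 0.58 ± 0.17 (adjusted p 0.0164). Rspo1 (-0.86, adjusted p 0.0346) and Sulf1 (-0.53, adjusted p 0.0365), named after their values were seen, also fell. At 10 ppm 0 of 13 were called, at 40 ppm 1 up, and over the mean of the doses 1 up and 2 down. Of all genes, 12.6%, 26.0% and 29.6% were called in these 3 comparisons. Of the 6 keratin and surface genes 4 rose in WT at 120 ppm (23.9% of all genes were called there, in either direction), led by Krt19 (0.59 ± 0.10, adjusted p 0.0002), Krt7 (0.45 ± 0.09, adjusted p 0.0018) and Krt8 (0.41 ± 0.10, adjusted p 0.0055), so these keratins went the other way from Muc16.

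In KO and CD-1 none of the 13 passed at any dose, beside 0% of all genes in KO and at most 0.0175% in CD-1. None passed between TG doses either, where 0% of all genes did. The median there was 0.45 at 40 minus 10 ppm and 0.49 at 120 minus 10 ppm. The lowest p of the last comparison belonged to Rspo1 (0.68 ± 0.17), Aldh1a2 (0.67 ± 0.18) and Cldn15 (0.62 ± 0.17), each with an adjusted p of 0.358. For KO minus WT in air the median was -0.41 and Cldn15 was the 1 of 13 called (-0.98 ± 0.30, adjusted p 0.038), beside 16.8% of all genes. For CD-1 minus KO 4 were higher and 2 lower, beside 32.4% of all genes called, led by Ildr2 (1.16 ± 0.24, adjusted p 0.0020), Nkain4 (-0.48 ± 0.13, adjusted p 0.0114) and Igfbp6 (-0.53 ± 0.15, adjusted p 0.0118). For TG minus WT over the exposed doses 7 were lower and 1 higher, with a median of -0.33, beside 68.0% of all genes called. For TG minus KO 4 were lower and 1, Has1 (0.48 ± 0.08), was higher, beside 46.9% of all genes called.

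Markers of other lung cells were set beside the mesothelial score. The 4 endothelial markers (Pecam1, Cdh5, Cldn5 and Tek), all tested, correlated with it at -0.587, from -0.670 in WT to -0.216 in TG. Their mean level stayed between 9.89 and 10.7 in all arrays. The club cell list correlated at 0.197, fibroblast at 0.138, cardiac muscle at 0.130, skeletal muscle at 0.282, adipose at 0.218, alveolar type 2 at 0.194 and alveolar type 1 at -0.07. The ciliated list correlated at 0.298, and the 3 tested squamous markers at 0.252, with 0.406 in WT and -0.393 in TG. In TG the fibroblast list correlated at 0.620. In WT at 120 ppm Muc16 averaged lower than in air. There 4 of 6 club cell markers and 3 of 4 ciliated markers fell, beside 23.9% of all genes called. Of the 4 tested smooth muscle and pericyte markers 3 rose. The club list averaged 12.2 to 12.4 per array in WT air and 11.5 to 11.9 at 120 ppm. The part of these cells in the mesothelial values was not tested.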

How the data were processed

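As deposited, the values are log2 signal of 45037 probe sets on 80 arrays, and the submitters' processing notes name RMA and Partek for them. The sources used here do not give versions, settings or whether the strains were normalized together. Of the probe sets, 28898 carried 1 symbol, 551 several and 15588 none in the supplied annotation. Only the first were used, with coordinates from RefSeq (GRCm38.p6).

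The mesothelial genes and all lists were chosen with earlier results of these data known. All 6 genes were always named. Up to 3 genes of the wider lists with the lowest p per comparison, and the 8 genes most like the members, were also named. Genes beyond that are marked.

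Linear models were fitted over 11406 genes with limma 3.58.1 (R 4.3.3) and adjusted by Benjamini-Hochberg, and each SE given with a difference comes from them. Each of WT, KO and CD-1 was fitted alone (20 arrays each), as were the 15 exposed TG arrays. Strains in air were fitted together on centred arrays, as were strains over the exposed doses. Every fit pools the spread of all its groups, so an SE is not that of the named groups alone. Mice are the replicates, named as biological replicates in the labels. Correlations used Python 3.11.15 with SciPy 1.17.1 and 100000 permutations. The limma steps were tested on simulated data. Alternatives changed array scaling, the level filter, probe sets, the variance model, the arrays in a fit, the replicate block and each replicate in turn, and left out 4 arrays that stood apart by their markers. Same-numbered mice did not in general deviate together (mean correlation -0.0012 for WT and 0.0506 for KO, and 0.0082 for TG and 0.0111 for CD-1). For single replicate numbers the mean ran from -0.153 (TG replicate 3) to 0.182 (TG replicate 5). No general pairing by number was seen, which does not exclude one.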

Additional observations from a re-analysis of the deposited data

Results flagged for a closer look

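In 3 of the 96 sets of 5 mice (6 genes in 16 groups) 1 mouse stood far from the other 4, and chance alone marks about 5% of such sets. For Upk3b, TG 40 ppm replicate 4 read 8.099, where the other 4 read 7.42 to 7.58. Also for Upk3b, TG 120 ppm replicate 3 read 7.0058, where the other 4 read 7.85 to 8.12. That mouse was the lowest of its group for Msln (5.77), Muc16 (5.00) and Lrrn4 (4.29) as well. For Wt1, CD-1 air replicate 4 read 4.627, where the other 4 read 3.60 to 3.83. It is the 1 array in which Wt1 exceeded the level filter, and the same mouse was the highest CD-1 air mouse for Upk3b (9.11), Muc16 (6.05) and Lrrn4 (6.38). Its array is also 1 of the 4 that stood apart by squamous and skeletal muscle markers.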

How the results depend on the processing

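Of the 5 tested members, 2 were called in WT at 120 ppm, in place of 1, when arrays were centred on their median or all probe sets of a gene were averaged. For the mean of the WT doses 0 were called with a trended, robust variance (Muc16 adjusted p 0.0531). On the values as deposited, 5 were called in KO minus WT in air, 4 in TG minus WT (with a median of -0.7883) and 2 in TG minus CD-1. With all 80 arrays in 1 fit, 1 was called in TG minus WT. Leaving out 1 replicate at a time gave 0 to 2 calls in WT at 120 ppm, 0 to 1 for the mean of the WT doses, 0 to 2 in KO minus WT in air, 1 to 2 in CD-1 minus KO in air, 1 to 3 in TG minus WT, and 0 to 1 in the response of WT minus KO. Without the 4 arrays high in squamous or skeletal muscle markers, an alternative chosen after seeing the data, 0 were called in WT at 120 ppm and for the mean of the WT doses, 1 in KO minus WT in air, 1 in TG minus WT and 1 in the response of WT minus KO. With the replicate block, Muc16 in WT at 120 ppm was -1.142 (adjusted p 0.039), and the block changed no call of a member. Over 19 alternatives that value ran from -1.386 to -0.8517 (adjusted p 0.0138 to 0.108), and Upk1b in CD-1 minus WT in air from -2.465 to -2.004. No called value changed sign in any alternative that was run. Among the differences of single genes, 21 values passed the threshold newly and 32 no longer passed. The other 3297 kept their side of it or, for TG doses minus TG air, which had no test, moved by no more than the SD within groups. The 5 mice per group limit the precision, and Wt1 did not pass the level filter. The cause of these shifts was not tested.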
